A study of Homo sapiens with 18 samples.

Results

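The table of HEK293T cells edited at NRF1 held 58870 rows, of which 1247 carried a symbol ending in -AS and a number, the name given to an RNA read from the opposite strand of another gene. The 141 of these with a mean of at least 2 CPM over all 18 libraries are described here as the expressed antisense RNAs, where CPM is a count divided by the library total and scaled to 1000000. Members were thus chosen by their symbol and their mean level. Of the other 1106 antisense rows, 372 had no count in any library. The members nearest the limit were DICER1-AS1 at 2.09 CPM and NFYC-AS1 at 2.11 CPM, and the transcripts just outside it were PAXIP1-AS2 at 1.998 CPM and SGMS1-AS1 at 1.98 CPM. In GENCODE 44, 137 of the 141 were annotated as long non-coding RNAs. TP73-AS1, EMC3-AS1 and SVIL-AS1 were annotated as transcribed pseudogenes and NCBP2-AS2 as a protein-coding gene, so the symbol rule and the label long non-coding part company for these 4.

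An antisense RNA is transcribed from the strand opposite to a sense gene, and many begin at a promoter that fires in both directions. Some act on the sense gene in cis, some act elsewhere in the cell, and for most no function is known. NRF1 (nuclear respiratory factor 1) is a transcription factor that binds a GC-rich palindromic element close to the start sites of many housekeeping and mitochondrial genes. An antisense RNA that shares such a promoter starts beside the same element.

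HEK293T is a human embryonic kidney line. Cells received a plasmid with 1 of 3 base editors and with a guide against the splice sites of NRF1 exon 7 (NRF1 guide) or against an intergenic site (intergenic guide). SaABE is the adenine deaminase ABE8e on a Staphylococcus aureus Cas9 nickase, SpABE is ABE8e on a Streptococcus pyogenes Cas9 nickase, and SpCBE joins evoCDA1, a deaminase of cytosine, to the S. pyogenes nickase. This gave 6 groups of 3 libraries. All groups shared 750000 cells per transfection, puromycin for 48 h and RNA at 72 h, so the controls carried an editor, a guide and the selection too. The cells were a transfected population and not a clone.

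Column totals ran between 28101094 and 40687447 counts, and the 141 members held between 0.122% and 0.137% of them. NRF1 itself had 39.7 ± 2.39 CPM with the NRF1 guide and 28.5 ± 3.19 CPM with the intergenic guide (SD, n = 9 each), a gene-level value that does not show whether exon 7 was present. The 7 HEK293T markers examined summed to between 896 and 1131 CPM in every library, with VIM, LIN28B, NEFM and KRT18 all above 60 CPM and PAX2 lowest at a median of 1.96 CPM. The 4 blood markers summed to at most 0.805 CPM and the 2 liver markers to at most 0.505 CPM. PTPRC and HBB had a median of 0 CPM. Of the fibroblast markers, COL1A1 was present at 13.7 to 22.6 CPM, whereas DCN and LUM reached at most 0.112 and 0.642 CPM.

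Promoters of 6 members on which the results turn are printed as RefSeq windows (GRCh38.p14) of 300 bases on the RNA's own strand, ending 50 bases after its start. Capitals mark every match to an NRF1 core element, searched as GCGCATGCG or GCGCACGCG on both strands. A longer run in capitals is one in which matches on both strands overlap. The first 5 belong to members that fell with the NRF1 guide and hold a match. The last belongs to SLC5A4-AS1, which fell most and holds no exact match. With 1 base allowed to differ, its window matches 2 bases before the start and 27 bases after it, as 22.1% of all genes with a window do somewhere.
SLC9A3-AS1: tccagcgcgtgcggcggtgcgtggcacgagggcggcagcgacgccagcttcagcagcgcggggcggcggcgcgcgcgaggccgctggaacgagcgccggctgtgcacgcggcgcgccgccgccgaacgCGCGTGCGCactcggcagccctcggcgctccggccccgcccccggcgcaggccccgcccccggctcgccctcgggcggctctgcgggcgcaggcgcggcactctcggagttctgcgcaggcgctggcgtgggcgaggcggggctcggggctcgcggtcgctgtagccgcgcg
PTPRG-AS1: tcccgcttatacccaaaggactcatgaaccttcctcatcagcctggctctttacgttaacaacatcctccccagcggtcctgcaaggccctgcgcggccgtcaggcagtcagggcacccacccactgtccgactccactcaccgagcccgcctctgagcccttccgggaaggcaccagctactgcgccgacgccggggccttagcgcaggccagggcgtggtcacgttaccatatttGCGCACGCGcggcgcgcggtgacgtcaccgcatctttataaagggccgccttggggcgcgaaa
MMP25-AS1: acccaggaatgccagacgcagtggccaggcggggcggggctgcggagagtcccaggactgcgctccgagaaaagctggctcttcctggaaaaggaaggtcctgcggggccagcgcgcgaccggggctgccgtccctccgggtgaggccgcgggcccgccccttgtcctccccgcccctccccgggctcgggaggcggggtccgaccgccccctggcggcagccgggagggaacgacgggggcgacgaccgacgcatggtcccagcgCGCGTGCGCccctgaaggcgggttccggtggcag
ATP6V0E2-AS1: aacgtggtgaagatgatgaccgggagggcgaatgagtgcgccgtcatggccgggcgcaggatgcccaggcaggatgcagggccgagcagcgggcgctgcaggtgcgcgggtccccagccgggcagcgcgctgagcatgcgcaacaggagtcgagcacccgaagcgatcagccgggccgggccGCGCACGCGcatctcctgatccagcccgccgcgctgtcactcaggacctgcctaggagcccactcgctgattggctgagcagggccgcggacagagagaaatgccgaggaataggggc
THAP7-AS1: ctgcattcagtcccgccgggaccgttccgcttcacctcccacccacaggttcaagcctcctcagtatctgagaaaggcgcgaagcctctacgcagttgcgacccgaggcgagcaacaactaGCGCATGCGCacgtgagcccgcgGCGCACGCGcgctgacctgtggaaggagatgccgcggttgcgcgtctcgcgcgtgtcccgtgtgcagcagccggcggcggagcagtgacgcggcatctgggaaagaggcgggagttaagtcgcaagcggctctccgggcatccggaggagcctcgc
SLC5A4-AS1: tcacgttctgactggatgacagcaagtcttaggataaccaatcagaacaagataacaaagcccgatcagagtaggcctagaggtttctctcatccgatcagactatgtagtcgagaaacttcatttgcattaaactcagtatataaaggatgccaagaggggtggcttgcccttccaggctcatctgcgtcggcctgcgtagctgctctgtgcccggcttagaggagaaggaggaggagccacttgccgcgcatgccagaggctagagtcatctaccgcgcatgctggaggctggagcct

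The MMP25-AS1 window lies at chr16:3059321-3059620, the SLC9A3-AS1 window at chr5:472986-473285 and the THAP7-AS1 window at chr22:21001672-21001971. ATP6V0E2-AS1 is shown at chr7:149873813-149874112 on the minus strand and PTPRG-AS1 at chr3:62318898-62319197, also on the minus strand. For these 2 the RefSeq start lies inside the longer gene that GENCODE annotates. SLC5A4-AS1 is at chr22:32204865-32205164 on the plus strand. The match in ATP6V0E2-AS1, at chr7:149873922-149873930, also fell inside the window of its sense gene ATP6V0E2, 47 bases before that gene's start and 68 bases before the antisense start. Among 27305 genes with such a window, 4.556% held a match. For the antisense members it was 15 of the 121 that could be matched by symbol (12.4%), and for their sense genes 10 of 119 (8.403%). The 27305 include genes not tested here, whereas members were chosen as expressed. Of the genes tested, 949 had a window with a match and 10671 a window without, which is the closer background.

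Antisense RNAs in these cells were mostly scarce. The median member had 5.03 CPM, 71 members reached 5 CPM and 30 reached 10 CPM. FGD5-AS1 was highest at a mean of 147 CPM, and together with OIP5-AS1 (70.6 CPM) and THAP9-AS1 (68.4 CPM) it made up 21.7% of all member CPM. Per kb of annotated exon, the order was FGD5-AS1 at 24.2, EMC3-AS1 at 23.7, VPS9D1-AS1 at 22.4, THAP9-AS1 at 15.6 and PITPNA-AS1 at 11.3 CPM per kb. SVIL-AS1 stood above them at 99.5 CPM per kb, but its GENCODE 44 model counts only 122 exon bases, all of them inside another gene ID of the same name that has no row in the table, so that this value is not a usable level. The EMC3-AS1 model has 534 exon bases, 26.2% of them shared with a gene ID on the same strand that also has no row. Exon lengths are from GENCODE 44, whereas the authors used GENCODE v30, so all levels and ratios per kb are approximate.

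Of the 141 symbols, 136 name a sense gene with a row of its own, always on the other strand. The 5 that do not are RPARP-AS1 and 4 transcripts of the HOX clusters (HOXA-AS2, HOXA-AS3, HOXB-AS3 and HOXD-AS2). Both genes started within 1000 bases of each other in 55 pairs (head-to-head), with a median of 245 bases between the starts. In 32 pairs the 3′ ends overlapped (tail-to-tail), in 30 one gene lay inside the other, 17 overlapped in another way and 2 lay apart. A protein-coding gene started within 1000 bases on the other strand of 86 members, and for 32 of these it was not the gene in the symbol. Antisense and sense exons shared bases in 102 of 136 pairs, with a median of 2.8% of the antisense exon bases. The median sense gene was 3.85 times as abundant per kb as its antisense RNA, and the antisense RNA was the more abundant of the pair, per kb, in 38 of 136. FGD5-AS1 had 24.2 CPM per kb beside 0.102 for FGD5, a guanine nucleotide exchange factor of endothelial cells. Ratios for TTN-AS1 and CKMT2-AS1 were larger, but their sense genes averaged only 0.105 and 0.0051 CPM, and SLC5A4 had no counts, so these ratios have no useful precision.

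**Figure D1:**
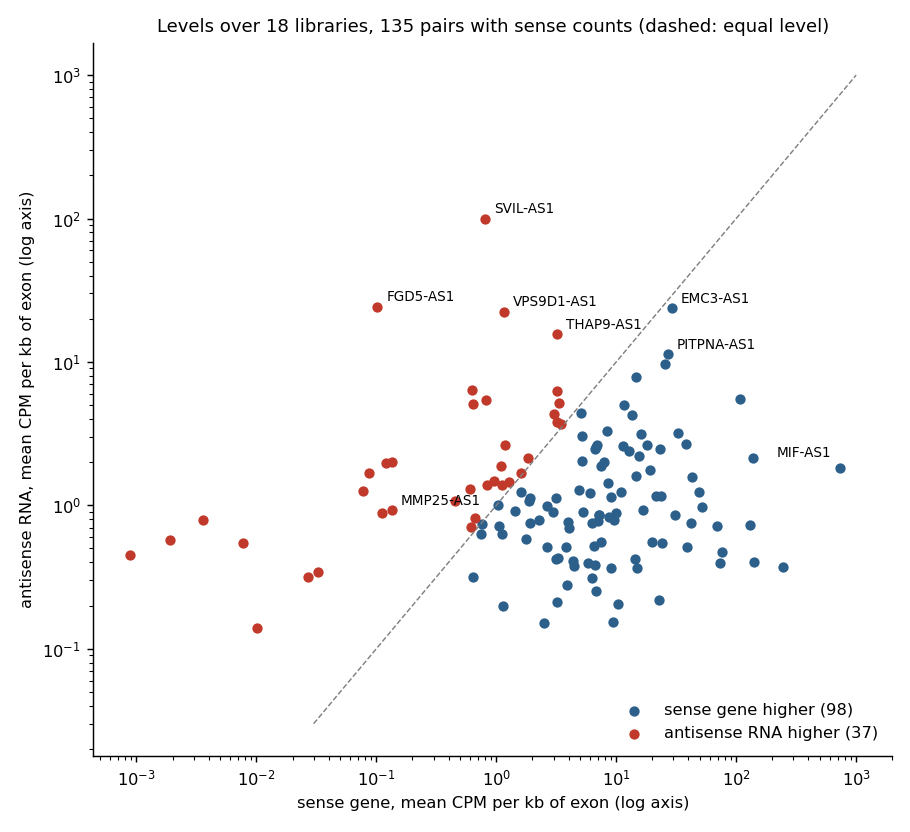
Mean level over 18 libraries of each antisense RNA (y axis) against its sense gene (x axis), both in CPM per kb of exon on log axes, for the 135 pairs with sense counts. Red points are the 37 antisense RNAs above their sense gene, with FGD5-AS1 far to the left of the line of equal level, blue points the 98 below it, and SVIL-AS1 is set high by its short annotated exons.

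The main comparison asked which antisense RNAs changed when the NRF1 guide replaced the intergenic guide, over all 3 editors. SLC5A4-AS1 fell most, followed by SLC9A3-AS1, PTPRG-AS1, MMP25-AS1, A1BG-AS1 and ATP6V0E2-AS1, and less strongly by CCDC183-AS1, STARD7-AS1, PRKAR2A-AS1, THAP7-AS1 and NIFK-AS1. A gene was called at an edgeR adjusted p under 0.05 and a log2 fold change beyond 0.5 in either direction. By that rule 11 of 141 members were called (7.80%, against 5.5% of the 17743 genes tested). All 11 were lower with the NRF1 guide (4.37% of all genes were called lower) and none were called higher (1.13% of all genes). At an unadjusted p under 0.05 edgeR had 35 members higher and 26 lower, and DESeq2 called 1 higher and 10 lower. By the adjusted p alone 21 members were higher and 23 lower, against 20.6% of all genes higher and 18.8% lower. The median log2 fold change of the members was 0.02, and that of all genes 0.01. The 130 members not called lay between -0.36 and 0.50. In bulk RNA, fewer cells that make a transcript and less of it per cell cannot be told apart.

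SLC5A4-AS1 lies on chromosome 22 (32205115 to 32278382, plus strand) and spans the whole of SLC5A4, which encodes a glucose-sensing relative of the sodium-glucose transporters. It had 0.987, 0.524 and 0.887 CPM in SaABE cells with the NRF1 guide, against 6.79, 6.75 and 6.77 CPM with the intergenic guide. SpABE cells had 0.741, 0.745 and 0.937 CPM with the NRF1 guide, against 6.51, 7.90 and 7.85 CPM with the intergenic guide. SpCBE cells had 1.04, 1.10 and 1.30 CPM with the NRF1 guide, against 7.99, 6.65 and 7.28 CPM with the intergenic guide. No library of either guide came near the other set. The means were 0.917 ± 0.228 and 7.17 ± 0.599 CPM (SD, n = 9 each), a 7.81-fold lower level with the NRF1 guide (log2 fold change -2.95 ± 0.09 SE, edgeR adjusted p = 5.4e-18). These CPM rested on 14 to 46 counts per library with the NRF1 guide and 200 to 302 with the intergenic guide.

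The sense gene could not be followed, since SLC5A4 had 0 counts in all 18 libraries, which allows up to 3 counts, or 0.107 CPM at the lowest total. The gene that starts nearest on the other strand was RFPL2, 42 bases away, a member of the ret finger protein-like family. RFPL2 had 8 to 27 counts per library with the NRF1 guide and 19 to 39 with the intergenic guide, and it too was called lower (log2 fold change -0.62 ± 0.16 SE, edgeR adjusted p = 0.0038), although the libraries overlapped. On the same strand, 54.8% of the SLC5A4-AS1 exon bases belong also to the pseudogene CPSF1P1, whose own row averaged 0.0205 CPM with the NRF1 guide and 0.282 CPM with the intergenic guide. How reads were divided between these 2 rows is not given in the sources used here.

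SLC9A3-AS1 starts inside SLC9A3, the sodium-proton exchanger NHE3 of kidney and gut epithelium, and 17.5% of its exon bases face SLC9A3 exons. It had 2.96, 2.92 and 2.96 CPM in SaABE cells with the NRF1 guide, against 9.95, 7.61 and 8.42 CPM with the intergenic guide. SpABE cells had 3.37, 3.87 and 3.55 CPM with the NRF1 guide, against 9.84, 9.42 and 9.18 CPM with the intergenic guide. SpCBE cells had 4.47, 4.26 and 4.28 CPM with the NRF1 guide, against 11, 9.86 and 9.45 CPM with the intergenic guide. Every NRF1-guide library was below every intergenic-guide library (log2 fold change -1.38 ± 0.06 SE, edgeR adjusted p = 3.4e-15). The level was 2.60-fold lower, and the change was larger than that of SLC9A3 itself, which is given with the pairs.

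PTPRG-AS1 overlaps the 3′ end of PTPRG, a receptor-type tyrosine phosphatase. Its lowest, median and highest values were 4.79, 5.59 and 6.33 CPM with the NRF1 guide, against 9.55, 10.9 and 11.7 CPM with the intergenic guide (log2 fold change -0.93 ± 0.05 SE, edgeR adjusted p = 5.4e-13). MMP25-AS1, opposite the gene of a membrane-anchored matrix metalloproteinase, had 4.20, 4.80 and 5.39 CPM with the NRF1 guide, against 7.59, 8.70 and 9.87 CPM with the intergenic guide (-0.86 ± 0.055 SE, edgeR adjusted p = 4.6e-12). Neither RNA had overlapping libraries. A1BG-AS1, opposite the gene of a plasma glycoprotein, had 3.14, 3.71 and 3.99 CPM with the NRF1 guide, against 5.17, 6.49 and 6.92 CPM with the intergenic guide (-0.77 ± 0.06 SE, edgeR adjusted p = 4.2e-11). It was also separated in full, and no promoter window could be matched to it. Exons on the other strand cover 61.1% of the A1BG-AS1 exon bases, 27% of those of MMP25-AS1 and 14.8% of those of PTPRG-AS1. The part of reads from the other strand in these values was not tested.

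ATP6V0E2-AS1 had 5.81, 6.18 and 7.61 CPM with the NRF1 guide, against 8.66, 10.6 and 12.2 CPM with the intergenic guide (lowest, median, highest), and the libraries did not overlap. The log2 fold change was -0.72 ± 0.06 SE (edgeR adjusted p = 2.4e-10). Its sense gene ATP6V0E2, a subunit of the proton pump that acidifies lysosomes, fell further, to 38.2 ± 2.65 CPM with the NRF1 guide, against 115 ± 8.62 CPM with the intergenic guide (SD, n = 9 each). ATP6V0E2 exons cover 26.3% of the antisense exon bases. Whether counting kept the strands apart is not given in the sources used here, and the part of sense reads in the antisense value was not tested.

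The other 5 called members were scarcer and closer to the limit of 0.5. CCDC183-AS1 averaged 1.67 ± 0.362 CPM with the NRF1 guide and 2.55 ± 0.326 CPM with the intergenic guide (log2 fold change -0.60 ± 0.12 SE). STARD7-AS1, head-to-head with a gene for phosphatidylcholine transfer to mitochondria, averaged 2.7 ± 0.438 CPM with the NRF1 guide and 4.07 ± 0.583 CPM with the intergenic guide (-0.59 ± 0.09 SE). PRKAR2A-AS1, head-to-head with the gene of a regulatory subunit of protein kinase A, averaged 1.94 ± 0.509 CPM with the NRF1 guide and 2.83 ± 0.511 CPM with the intergenic guide (-0.54 ± 0.10 SE). For these 3 the 9 and 9 libraries overlapped. THAP7-AS1, head-to-head with the gene of a zinc-finger transcription factor, averaged 2.34 ± 0.389 CPM with the NRF1 guide and 3.35 ± 0.238 CPM with the intergenic guide (-0.52 ± 0.08 SE). Its highest NRF1-guide library, at 2.96 CPM, was just under its lowest intergenic-guide library, at 3.03 CPM. NIFK-AS1, whose sense gene encodes a nucleolar partner of Ki-67, averaged 2.16 ± 0.436 CPM with the NRF1 guide and 3.07 ± 0.452 CPM with the intergenic guide (-0.51 ± 0.08 SE). The NIFK-AS1 libraries overlapped too, reaching up to 2.59 CPM with the NRF1 guide and down to 2.24 CPM with the intergenic guide. The edgeR adjusted p of these 5 ran from 1.2e-05 to 2.0e-04. Exons on the other strand cover 45% of the exon bases of THAP7-AS1 and 31.2% of those of CCDC183-AS1. For STARD7-AS1, PRKAR2A-AS1 and NIFK-AS1 the share was 9.3%, 6.9% and 7.3%.

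The last 2 calls depended on single libraries. NIFK-AS1 fell short of the limit without SaABE NRF1 replicate 1 (-0.48), 2 (-0.50) or 3 (-0.50), without SaABE intergenic replicate 1 (-0.50) or 3 (-0.46), without SpABE intergenic replicate 1 (-0.49) and without SpCBE intergenic replicate 2 (-0.50). It did so too under RLE scaling (-0.50), with DESeq2 (-0.50) and without the editor term (-0.50). THAP7-AS1 fell short without SaABE NRF1 replicate 1 (-0.49) or 3 (-0.50), SaABE intergenic replicate 1 (-0.49), SpABE NRF1 replicate 1 (-0.49) or SpABE intergenic replicate 1 (-0.50). Both stayed under an adjusted p of 0.05 in all of these fits.

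**Figure D2:**
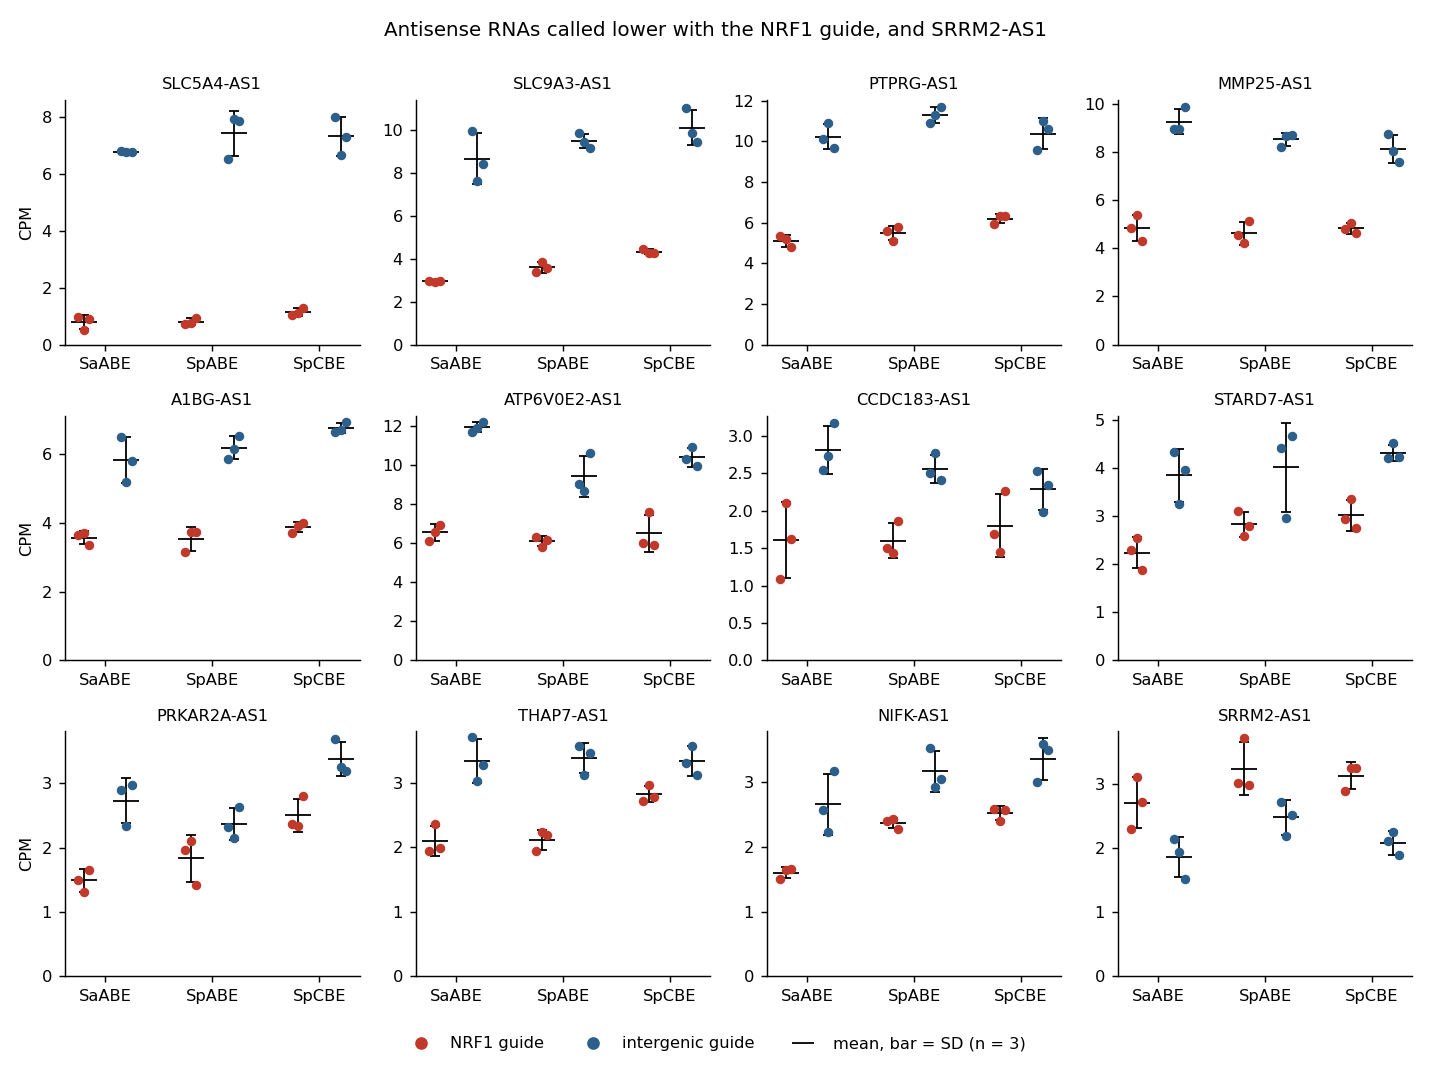
CPM in each library for the 11 antisense RNAs called lower and for SRRM2-AS1 (y axis, CPM from 0), by editor (x axis), with the NRF1 guide in red left of the intergenic guide in blue. Horizontal marks are means with SD (n = 3); red points lie below blue points throughout the upper row and above them for SRRM2-AS1 at the lower right.

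Non-overlap of the 9 and 9 libraries, a measure that needs no fold limit, held for 9 members (6.38%, against 6.7% of all genes tested). Of these, 7 were called, namely SLC5A4-AS1, SLC9A3-AS1, PTPRG-AS1, MMP25-AS1, A1BG-AS1, ATP6V0E2-AS1 and THAP7-AS1. The others were MRPL20-AS1, with 20.8 to 23.6 CPM with the NRF1 guide and 24.3 to 28.6 CPM with the intergenic guide, and ENTPD1-AS1, with 7.14 to 8.02 CPM with the NRF1 guide and 8.06 to 10.4 CPM with the intergenic guide. Both were lower by less than the fold limit.

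Upward changes were smaller. SRRM2-AS1 starts 26 bases from SRRM2, the gene of a nuclear speckle protein, and reads away from it without sharing exon bases. Its lowest, median and highest values were 2.31, 3.02 and 3.72 CPM with the NRF1 guide, against 1.52, 2.14 and 2.73 CPM with the intergenic guide, so the sets overlapped over all editors although not within any one. The log2 fold change of 0.498 ± 0.085 SE (edgeR adjusted p = 4.2e-05) lay just under the limit. It passed 0.5 under RLE scaling (0.505), with DESeq2 (0.504) and with the replicate number as a block (0.501), and when any of 9 single libraries was left out, namely SaABE NRF1 replicate 1, SaABE intergenic replicates 1 and 2, SpABE NRF1 replicates 1 and 3, SpABE intergenic replicates 1 and 3, SpCBE NRF1 replicate 1 and SpCBE intergenic replicate 2 (0.503 to 0.530). TMEM161B-AS1 (log2 fold change 0.37), ENTPD3-AS1 (0.33) and TTC28-AS1 (0.32) followed.

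No member at 10 CPM or more was called over all editors, against 3.53% of all tested genes at that level. Of those 30 members 11 passed the adjusted p, 7 higher and 4 lower (36.7%, against 53.3% of all genes at that level). FGD5-AS1 had 139, 155 and 174 CPM with the NRF1 guide, against 126, 134 and 154 CPM with the intergenic guide (lowest, median, highest), a log2 fold change of 0.18 ± 0.03 SE (edgeR adjusted p = 4.2e-06). VPS9D1-AS1 gave 0.18 ± 0.03 and EMC3-AS1 0.14 ± 0.04. OIP5-AS1 had 70.7 ± 3.12 CPM with the NRF1 guide and 70.3 ± 1.90 CPM with the intergenic guide (SD, n = 9 each), and TP73-AS1 had 49.6 ± 2.43 CPM with the NRF1 guide and 50 ± 3.61 CPM with the intergenic guide. Both differed by less than the spread between libraries.

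Of the 15 members with an NRF1 element in the promoter window, 5 were called lower (33.3%) and 7 were lower by the adjusted p, none higher, with a median log2 fold change of -0.13. Of the 106 members with a window and no match, 5 were called lower (4.72%), while 14 were lower and 20 higher by the adjusted p, with a median of 0.05. Over all tested genes, 14.3% of the 949 with a match were called lower and 51.8% were lower by the adjusted p (median log2 fold change -0.11), against 3.35% and 18.3% of the 10671 without a match. Genes with a match were thus called lower more often over the whole table too, and no difference between antisense RNAs and other genes was tested. SLC5A4-AS1 holds no exact match in this window, and PITPNA-AS1, with a match 122 bases before its start, had 6.83 ± 0.638 CPM with the NRF1 guide and 6.79 ± 0.324 CPM with the intergenic guide (SD, n = 9 each). Exons on the other strand cover 63.9% of the PITPNA-AS1 exon bases. The element lies 122 bases before the start of SLC9A3-AS1, 13 before PTPRG-AS1, 68 before ATP6V0E2-AS1 and 16 bases after the start of MMP25-AS1. By arrangement, 3 of 55 head-to-head, 3 of 32 tail-to-tail, 2 of 30 inside and 3 of 17 otherwise overlapping members were called lower, beside 4.37% of all genes.

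Each member was then set beside its sense gene. Both genes were tested in 128 pairs, and the sense genes as a group had 4 called, all lower (3.12%, against 5.5% of all genes). With edgeR 32 of these 128 sense genes passed the adjusted p as higher and 28 as lower, beside 20.6% and 18.8% of all genes. The log2 fold changes of both genes had the same sign in 72 of 128 pairs. Both passed the adjusted p and moved the same way in 14 pairs, 11 down and 3 up. Both passed it and moved apart in 10 pairs, 7 with the antisense RNA higher and the sense gene lower and 3 the other way. How many such pairs unrelated genes would give was not tested, so these counts show no link within pairs. A single pair had both genes called, ATP6V0E2-AS1 with ATP6V0E2. In 9 pairs only the antisense RNA was called and in 3 only the sense gene, VASH1, SBF2 or FGD5.

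For the antisense RNAs called lower, the sense gene usually moved far less. SLC9A3 had 5.37 ± 0.643 CPM with the NRF1 guide and 7.43 ± 0.933 CPM with the intergenic guide (log2 fold change -0.47 ± 0.06 SE), beside -1.38 for SLC9A3-AS1. PTPRG had 42.0 ± 1.42 CPM with the NRF1 guide and 44.6 ± 2.44 CPM with the intergenic guide (-0.09 ± 0.03 SE), beside -0.93 for PTPRG-AS1. MMP25 had 0.658 ± 0.175 CPM with the NRF1 guide and 0.608 ± 0.203 CPM with the intergenic guide, a difference within the spread between libraries. A1BG (-0.25), STARD7 (-0.12), PRKAR2A (-0.21) and THAP7 (-0.22) passed the adjusted p as lower below the fold limit, and NIFK (0.035) and CCDC183 (-0.15) did not pass it (edgeR adjusted p = 0.35 and 0.68). The genes that start closest to NIFK-AS1 and CCDC183-AS1 on the other strand are not the ones in their symbols. They are CLASP1, a microtubule plus-end protein (-0.19 ± 0.02 SE), and RABL6, a RAB-like GTPase (-0.22 ± 0.02 SE), and both passed the adjusted p.

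The reverse was seen for VASH1-AS1, named here after its values were seen. VASH1, which encodes a tubulin-trimming peptidase with an NRF1 element 13 bases before its start, fell to 10.3 ± 0.892 CPM with the NRF1 guide, against 35.8 ± 3.88 CPM with the intergenic guide (log2 fold change -1.79 ± 0.04 SE). VASH1-AS1 had 7.38 ± 1.14 CPM with the NRF1 guide and 6.73 ± 0.516 CPM with the intergenic guide (0.12, edgeR adjusted p = 0.071). It meets VASH1 tail-to-tail, and 56.6% of its exon bases are VASH1 exon bases on the other strand, while 34.7% are also exon bases of ANGEL1 on its own strand. These shared bases limit what the row says of VASH1-AS1 alone, and the part of VASH1 or ANGEL1 reads in it was not tested. SBF2-AS1, also named after its values were seen, carries an element in its own window and fell less than SBF2, the gene of a myotubularin-related pseudophosphatase. SBF2-AS1 had 3.26 ± 0.248 CPM with the NRF1 guide and 4.10 ± 0.424 CPM with the intergenic guide (-0.33), and SBF2 had 21.4 ± 1.22 CPM with the NRF1 guide and 40.2 ± 2.40 CPM with the intergenic guide (-0.91).

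Opposite movement was clearest for TTC28-AS1, MRPL20-AS1 and FGD5-AS1, all tail-to-tail with their sense genes. TTC28-AS1 had 20.5 ± 2.36 CPM with the NRF1 guide and 16.4 ± 1.94 CPM with the intergenic guide, whereas TTC28 had 54.7 ± 4.27 CPM with the NRF1 guide and 67.9 ± 5.18 CPM with the intergenic guide (log2 fold changes 0.32 and -0.31). MRPL20-AS1, whose sense gene encodes a mitochondrial ribosomal protein and which was picked after its values were seen, gave -0.25 and MRPL20 0.22. FGD5-AS1 gave 0.18 and FGD5 -0.53. FGD5 averaged only 0.666 CPM with the NRF1 guide and 0.972 CPM with the intergenic guide, and its call was lost without the editor term (edgeR adjusted p = 0.067) or without SaABE intergenic replicate 1 (-0.48) or SpCBE intergenic replicate 2 (-0.49) or 3 (-0.48).

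Whether a member moved differently from its own sense gene was tested on the log2 ratio of both CPM with 0.5 added to each, by a two-sided exact permutation test with the guide labels exchanged within each editor, over 8000 arrangements. All 16 pairs tested had p under 0.05, and 11 reached the smallest p the design allows, 0.00025. The ratio of VASH1-AS1 to VASH1 was higher by 1.86 log2 units with the NRF1 guide, that of ATP6V0E2-AS1 to ATP6V0E2 by 0.90, of TTC28-AS1 to TTC28 by 0.62 and of SBF2-AS1 to SBF2 by 0.61. In the other direction MMP25-AS1 gave -0.87, SLC9A3-AS1 -0.84, PTPRG-AS1 -0.78 and A1BG-AS1 -0.47. The 16 pairs were chosen because a member or its sense gene had moved, so their number is no count of support. CCDC183-AS1 lost its p of 0.0182 with 0.1 CPM added (exact permutation p = 0.113).

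**Figure D3:**
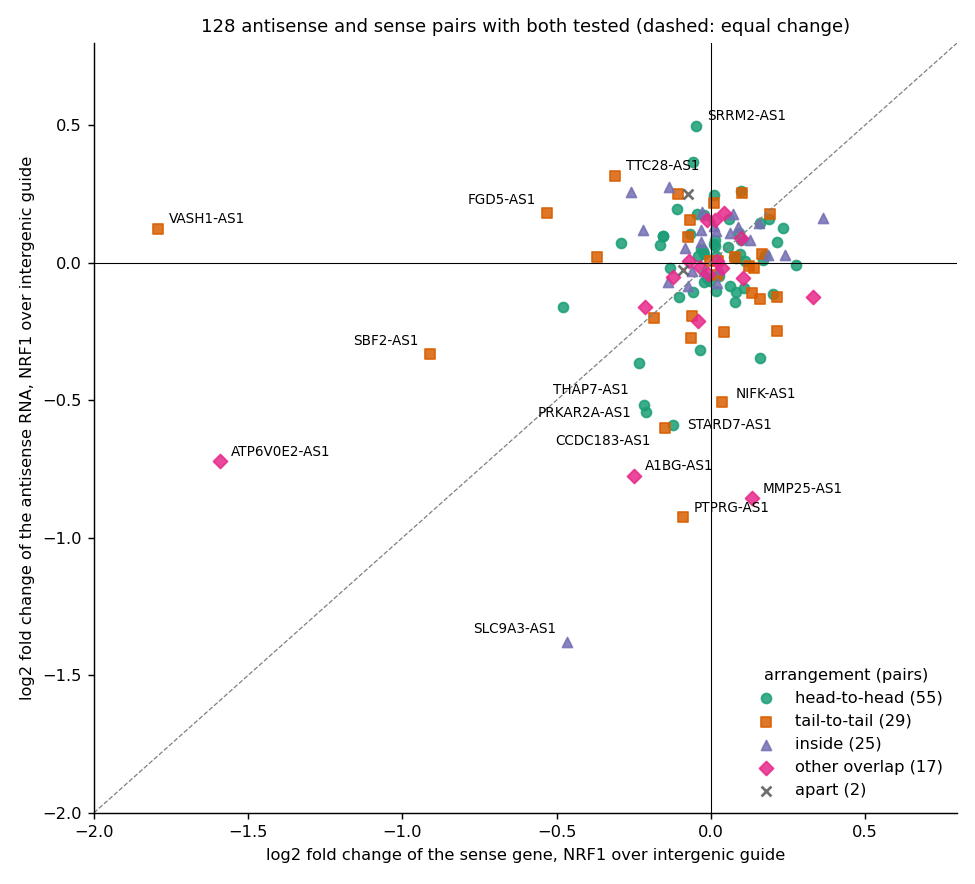
Log2 fold change of the antisense RNA (y axis) against that of its sense gene (x axis), NRF1 over intergenic guide over all 3 editors, for 128 pairs, with symbols for their arrangement. Most pairs sit near the origin. VASH1-AS1 lies far left at no change of its own, and ATP6V0E2-AS1 is low on both axes. SLC9A3-AS1 lies low with a smaller fall of SLC9A3. PTPRG-AS1 and MMP25-AS1 lie low with little change of the sense gene, of which MMP25 was scarce.

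The editors were next taken one at a time, comparing 3 and 3 libraries for each. All 18 libraries were fitted together with a shared estimate of spread, so the 3 tests were not fully independent. In SaABE cells 14 members were called (background 6.05% of all genes), 11 lower (background 4.81%) and 3 higher (background 1.24%), and the 11 were the same RNAs as over all editors. In SpABE cells 9 were called, all lower (background 6.41% in either direction and 4.7% lower), of which 8 were called over all editors and the other was TAF1A-AS1. No member was called higher in SpABE cells by edgeR or by DESeq2, against 1.71% of all genes by edgeR, and 26 were higher at an unadjusted p under 0.05. In SpCBE cells 8 were called, 7 lower and 1 higher (background 4.45% in either direction, 3.61% lower and 0.84% higher). SLC5A4-AS1, SLC9A3-AS1, PTPRG-AS1, MMP25-AS1, A1BG-AS1 and ATP6V0E2-AS1 were called in every editor, and all 11 had a negative fold change in every editor. The 11 were chosen from a fit of these same libraries, so the shared sign is no separate support. By the adjusted p, 11 of them were lower in SaABE, 10 in SpABE and 9 in SpCBE cells. The share of all genes called in every editor is not given here. The SpCBE call of STARD7-AS1 (-0.52) was lost without SpCBE NRF1 replicate 1 (-0.50) or 3 (-0.45) or SpCBE intergenic replicate 2 (-0.48). SLC5A4-AS1 gave -3.06 ± 0.16 in SaABE, -3.19 ± 0.15 in SpABE and -2.67 ± 0.14 in SpCBE cells (log2 fold change ± SE).

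SRRM2-AS1 was called higher in SaABE cells (0.54 ± 0.16) and in SpCBE cells (0.58 ± 0.14), with 0.39 ± 0.14 in SpABE cells. TTC28-AS1 had 21.3, 24.2 and 21.1 CPM in SaABE cells with the NRF1 guide, against 14.1, 15.1 and 15.2 CPM with the intergenic guide (0.58 ± 0.06). INKA2-AS1, which lies inside the gene of an inhibitor of the kinase PAK4, had 3.37, 2.84 and 3.37 CPM in SaABE cells with the NRF1 guide, against 2.75, 2.01 and 2.01 CPM with the intergenic guide (0.51 ± 0.14). Its call was lost without SaABE NRF1 replicate 1 or 3, SaABE intergenic replicate 2 or 3, SpABE intergenic replicate 3 or any 1 of the SpCBE libraries (0.43 to 0.50). SRRM2-AS1 lost its SaABE call without SaABE NRF1 replicate 2 (0.44) or SaABE intergenic replicate 3 (0.41). Of the INKA2-AS1 exon bases, 68.1% are covered by exons on the other strand, and the part of such reads in its value was not tested.

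**Figure D4:**
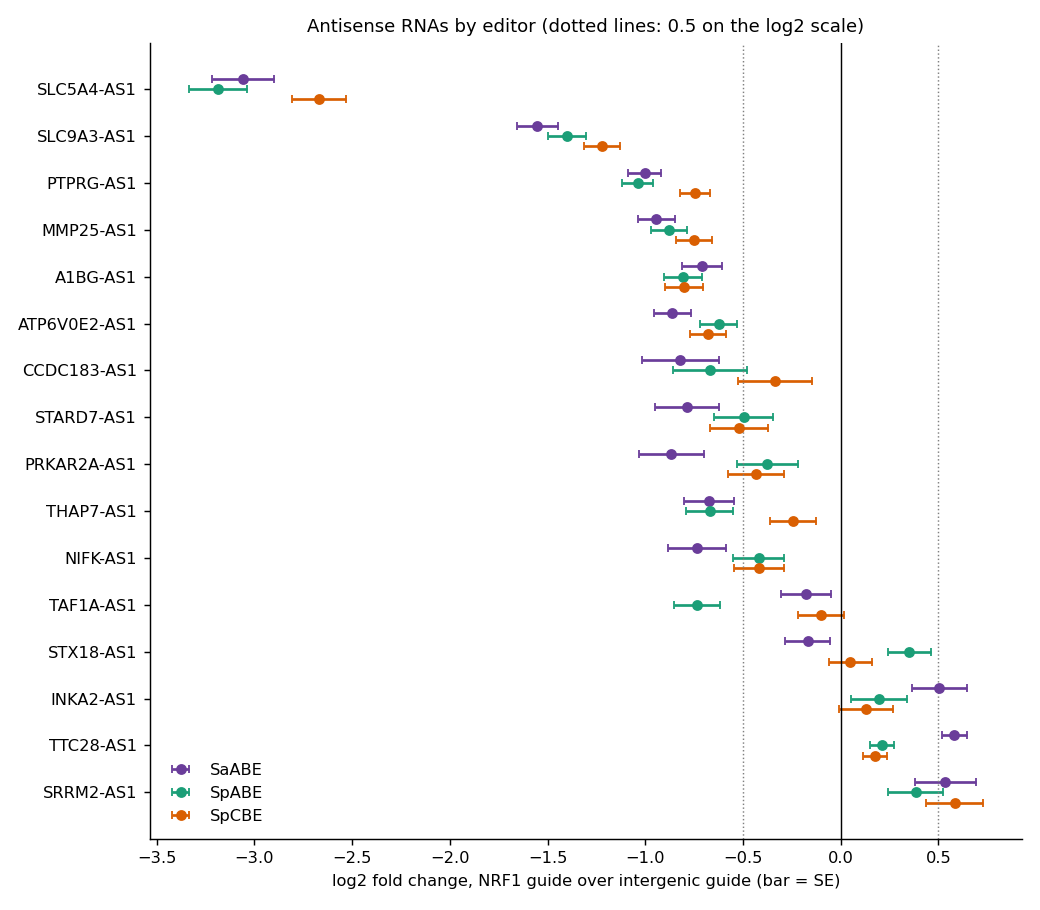
Log2 fold change, NRF1 over intergenic guide (x axis, bars are SE), in SaABE, SpABE and SpCBE cells for the 11 antisense RNAs called over all editors and 5 others called within editors or in a difference between editors. The 3 points of each of the upper 11 rows, a set chosen as lower in these same libraries, all lie left of 0. TAF1A-AS1 passes the dotted line only in SpABE cells.

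Differences between the editors' effects were tested directly. Between SaABE and SpABE 2 members were called (background 1.56%), STX18-AS1 with the lower effect in SaABE (background 0.919% lower) and TAF1A-AS1 with the higher (background 0.643% higher). By the adjusted p alone 4 were higher (background 6.37%) and 4 lower (background 5.33%). TAF1A-AS1 starts 108 bases from TAF1A, the gene of a subunit of the RNA polymerase I factor SL1. It had 2.42, 2.23 and 2.13 CPM in SpABE cells with the NRF1 guide, against 3.85, 3.51 and 3.94 CPM with the intergenic guide. In SaABE cells it had 2.69, 1.98 and 2.36 CPM with the NRF1 guide, against 2.51, 2.83 and 2.64 CPM with the intergenic guide, and those sets overlapped. The effect in SaABE less that in SpABE was 0.56 ± 0.18 (SE, edgeR adjusted p = 0.039), and SpABE less SpCBE gave -0.63 ± 0.17 (edgeR adjusted p = 0.018), the only member called between those editors (background 1.43%, of which 0.569% lower and 0.857% higher). By the adjusted p alone 2 members were higher (background 4.54%) and 3 lower (background 4.42%) in that contrast. TAF1A was higher in SpABE cells, at 21.8 ± 0.694 CPM with the NRF1 guide and 17.8 ± 1.24 CPM with the intergenic guide (SD, n = 3 each).

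STX18-AS1, head-to-head with the gene of an endoplasmic reticulum syntaxin, had 3.33, 3.33 and 2.96 CPM in SaABE cells with the NRF1 guide, against 3.60, 4.02 and 3.17 CPM with the intergenic guide. In SpABE cells it had 3.59, 3.63 and 3.65 CPM with the NRF1 guide, against 2.87, 2.88 and 2.78 CPM with the intergenic guide, without overlap (difference of effects -0.52 ± 0.16 SE, edgeR adjusted p = 0.035). Both calls between SaABE and SpABE were lost with DESeq2 (adjusted p = 0.089 for STX18-AS1 and 0.11 for TAF1A-AS1), with the replicate number as a block (edgeR adjusted p = 0.059 and 0.090), with no filter on low counts (edgeR adjusted p = 0.13 and 0.16) and when many single libraries were left out. For STX18-AS1 these were SaABE NRF1 replicate 3, SaABE intergenic replicate 1 or 2 and any SpABE library (-0.43 to -0.53, edgeR adjusted p = 0.053 to 0.094). For TAF1A-AS1 they were SaABE NRF1 or intergenic replicate 1 or 3, SpABE NRF1 replicate 2 or 3, SpABE intergenic replicate 1 or 3 and any SpCBE library (0.45 to 0.55, edgeR adjusted p = 0.051 to 0.13). The call of TAF1A-AS1 between SpABE and SpCBE was lost with DESeq2 (adjusted p = 0.058), with the block (edgeR adjusted p = 0.051), with no filter (edgeR adjusted p = 0.062) and without SpABE NRF1 replicate 3 (-0.59) or SpCBE intergenic replicate 2 (-0.58). Between SaABE and SpCBE edgeR called 0 members (background 0.614%, of which 0.242% higher and 0.372% lower), DESeq2 called 0, and at an unadjusted edgeR p under 0.05 there were 6 higher and 12 lower. By the adjusted p alone 1 was higher, TTC28-AS1 (background 2.02%), and 0 were lower (background 2.07%).

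The intergenic-guide libraries alone were compared to see how antisense levels differed between editors. Here editor and plasmid changed together, and for SaABE the intergenic guide as well, so these cannot be told apart. For SaABE against SpABE 8 members were called (background 7.03%), 7 lower (background 3.45%) and 1 higher (background 3.58%). For SaABE against SpCBE 6 were called (background 8.04%), 5 lower (background 4.23%) and 1 higher (background 3.8%). For SpABE against SpCBE 6 were called (background 6.19%), 2 lower (background 3.53%) and 4 higher (background 2.66%). HOXB-AS3, from the HOXB cluster of developmental transcription factor genes, had 3.53, 3.23 and 3.14 CPM in SaABE cells, against 7.20, 6.70 and 6.86 CPM in SpABE cells (log2 difference -1.07 ± 0.11 SE, edgeR adjusted p = 2.0e-08). SpCBE cells had 8.33, 7.45 and 6.95 CPM (-1.20 ± 0.10 SE for SaABE against SpCBE, edgeR adjusted p = 2.0e-09). With the NRF1 guide the 3 editors had 3.90 ± 0.541, 6.64 ± 0.355 and 8.40 ± 0.625 CPM (SaABE, SpABE, SpCBE, SD, n = 3 each). HOXB-AS3 was thus low in SaABE cells under either guide, while its guide effect was 0.09 (edgeR adjusted p = 0.24).

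TMEM44-AS1 had 1.73, 1.45 and 1.35 CPM in SaABE cells with the intergenic guide, against 2.47, 2.75 and 2.27 CPM in SpABE cells (-0.72 ± 0.15 SE) and 2.58, 2.58 and 2.44 CPM in SpCBE cells (-0.75 ± 0.15 SE). NFYC-AS1 was lower in SaABE than in SpABE cells (-0.70 ± 0.17 SE), as were TMPO-AS1 (-0.67), SCAMP1-AS1 (-0.58), BOLA3-AS1 (-0.57) and CCDC18-AS1 (-0.54), whereas HOXD-AS2 was higher (0.66 ± 0.16 SE). Of these calls SCAMP1-AS1 was lost without SaABE intergenic replicate 2 (-0.46), BOLA3-AS1 without SpABE intergenic replicate 2 (-0.48), and CCDC18-AS1 without SaABE intergenic replicate 3 (-0.45) or SpABE intergenic replicate 1 (-0.45) or 2 (-0.47). Against SpCBE cells, SaABE cells were also lower in ZNF582-AS1 (-0.60), ZBTB11-AS1 (-0.52) and SCAMP1-AS1 (-0.51). ZBTB11-AS1 was lost without SpCBE intergenic replicate 2 (-0.48) or 3 (-0.49), and SCAMP1-AS1 without SaABE intergenic replicate 2 (-0.39) or SpCBE intergenic replicate 3 (-0.45). MIF-AS1 was called higher there (0.73 ± 0.28 SE, edgeR adjusted p = 0.039), with 4.18, 2.24 and 2.97 CPM in SaABE cells against 1.14, 2.65 and 1.80 CPM in SpCBE cells. Those values overlapped, and the call was lost with DESeq2 (adjusted p = 0.083), without SaABE intergenic replicate 1 (0.46) or 3 (0.76) and without SpCBE intergenic replicate 1 (0.48) or 3 (0.70). Exons on the other strand cover 46.5% of the MIF-AS1 exon bases and 49.3% of those of HOXD-AS2. On its own strand, MIF-AS1 shares 61.25% of them with a gene ID that has no row. The part of such reads in these values was not tested.

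Between the editors on the same nickase, SpABE cells were higher than SpCBE cells in ATP2A1-AS1 (0.62 ± 0.12 SE), RAMP2-AS1 (0.57 ± 0.14 SE), SLC25A25-AS1 (0.52) and TMEM202-AS1 (0.50), and lower in PPP3CB-AS1 (-0.53) and PRKAR2A-AS1 (-0.52). ATP2A1-AS1 had 7.00, 6.20 and 6.18 CPM in SpABE cells, against 3.72, 4.68 and 4.11 CPM in SpCBE cells. RAMP2-AS1 had 3.64, 3.53 and 2.92 CPM in SpABE cells, against 1.97, 2.34 and 2.50 CPM in SpCBE cells. Neither pair of groups overlapped. Leaving out a single library ended 5 of these 6 calls, all but that of ATP2A1-AS1. Of the ATP2A1-AS1 exon bases, 49.1% are covered by exons on the other strand. Its sense gene ATP2A1 had 6.32 ± 0.176 CPM in SpABE cells and 4.29 ± 0.158 CPM in SpCBE cells with the intergenic guide (SD, n = 3 each). The part of reads from the other strand in the antisense value was not tested. PPP3CB-AS1 was lost without SpCBE intergenic replicate 3 (-0.43), PRKAR2A-AS1 without SpABE intergenic replicate 2 (-0.45) or SpCBE intergenic replicate 1 (-0.44), RAMP2-AS1 without SpCBE intergenic replicate 1 (0.49), and SLC25A25-AS1 without SpABE intergenic replicate 1 (0.46) or 2 (0.49) or SpCBE intergenic replicate 2 (0.46). TMEM202-AS1, the closest to the limit, was lost without SpABE intergenic replicate 2 (0.41) or 3 (0.48) or SpCBE intergenic replicate 1 (0.49) or 2 (0.41).

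**Figure D5:**
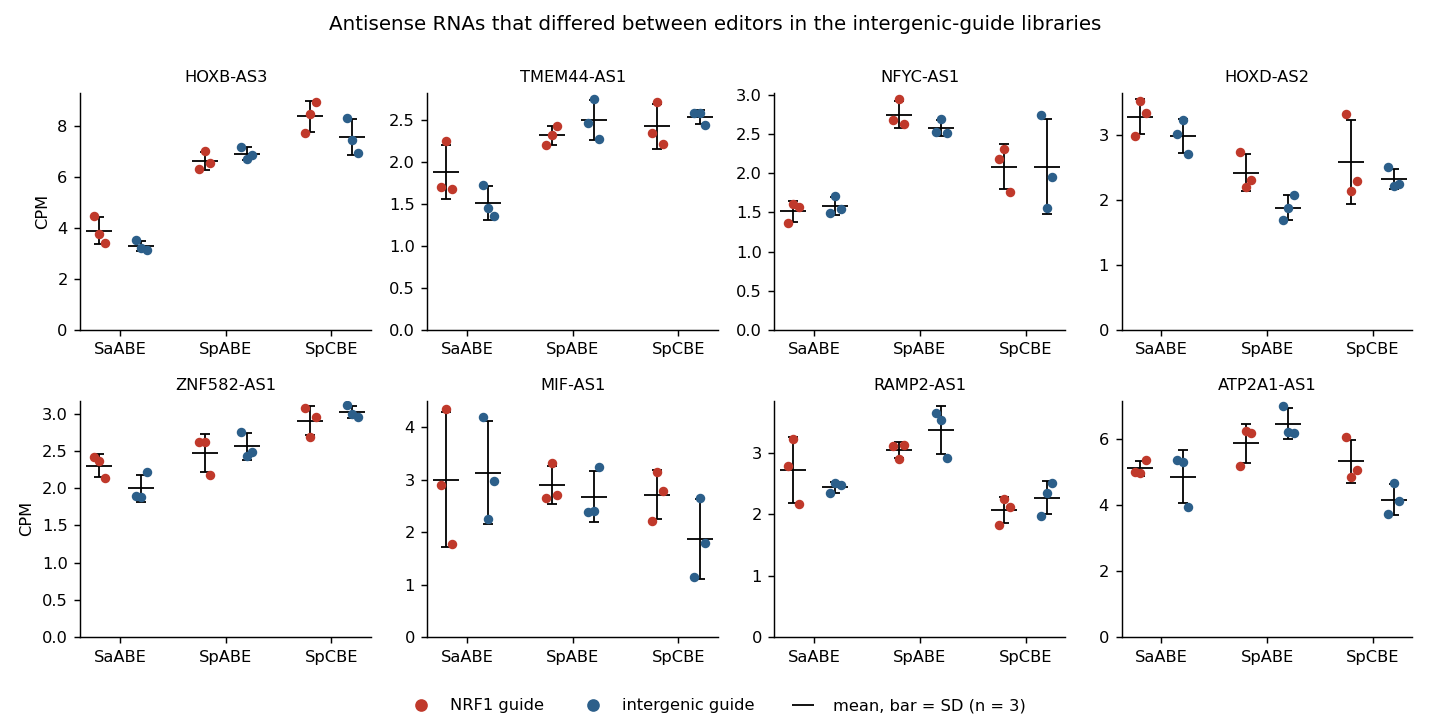
CPM in each library (y axis from 0) of 8 antisense RNAs that differed between editors in the intergenic-guide libraries, by editor (x axis), with the NRF1 guide in red left of the intergenic guide in blue and marks for mean and SD (n = 3). HOXB-AS3 is lowest in SaABE cells under both guides, and MIF-AS1 is widely spread in every editor.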

How the data were processed

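RNA was sequenced from 18 HEK293T libraries. The deposited values were expected counts per gene, which need not be whole, made by the authors from polyA RNA (Illumina Stranded mRNA Prep) with cutadapt 1.18, STAR 2.7.0f and hg38 with GENCODE v30; DESeq2 1.46.0 is also named in the submitters' processing notes. Which program counted reads, whether it used strand and how it handled multi-mapped reads is not given in the sources used here. Tests had been planned for whole counts, so the values were rounded first. A further 18 columns of the table were not used. Nothing states that the replicates were separate cultures, so the p-values cover only the variation among these libraries, possibly a technical one.

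Genes were filtered with filterByExpr, scaled by TMM and tested with edgeR 4.0.16 (quasi-likelihood, R 4.3.3, Benjamini-Hochberg over all 17743 genes), with editor and guide as terms over all editors and with 6 group means otherwise. CPM per library are TMM-scaled, while the mean CPM that chose members uses column totals. Positions are from GENCODE 44 on hg38, and promoters from RefSeq GRCh38.p14. The fits were tested on simulated data. Alternatives were DESeq2 1.42.0, RLE scaling, other filters and member limits, a replicate block and leaving out each library. The rule for named genes took every member called over all editors, the 6 with the highest CPM per kb, in each other comparison at most the 3 largest rises and 3 largest falls among called members, the sense genes of all these, the transcripts at the 2 CPM limit and NRF1. Other genes named, such as VASH1-AS1, SBF2-AS1, MRPL20-AS1, ENTPD1-AS1, TMEM161B-AS1, ENTPD3-AS1, OIP5-AS1, TP73-AS1 and the genes that start near a member, were chosen after their values were seen. The members and lists were chosen with earlier results of these data known. The search with 1 base allowed to differ and the shares over all genes by level and element were added after seeing the data. The limit for 0 counts covers counting error only, while the SD and SE given include variation among these libraries.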

Additional observations from a re-analysis of the deposited data

Results flagged for a closer look

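The guide effect (log2 fold change, NRF1 over intergenic guide) differed between 2 editors for 14 member contrasts by an edgeR interaction term with an adjusted p under 0.05. Most of these differences were under the fold limit of 0.5, and none was weighed further. Some members stand in more than 1 contrast, and each contrast tested 141 members. Of all tested genes, 6.37% were higher and 5.33% lower by the adjusted p for SaABE less SpABE. These shares were 2.02% and 2.07% for SaABE less SpCBE, and 4.54% and 4.42% for SpABE less SpCBE.

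Between SaABE and SpABE (SaABE less SpABE) the differences were -0.52 for STX18-AS1, -0.42 for TMEM147-AS1, -0.39 for ZNF503-AS2, -0.13 for FGD5-AS1, 0.27 for PSMA3-AS1, 0.29 for OTUD6B-AS1, 0.37 for TTC28-AS1 and 0.56 for TAF1A-AS1. Their edgeR adjusted p ran from 0.0065 for TMEM147-AS1 to 0.039 for TAF1A-AS1. The effect of TMEM147-AS1 was -0.28 in SaABE and 0.14 in SpABE cells, and that of TTC28-AS1 was 0.58 in SaABE and 0.21 in SpABE cells.

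Between SaABE and SpCBE the difference was 0.41 for TTC28-AS1 (edgeR adjusted p = 0.0096). Between SpABE and SpCBE it was -0.63 for TAF1A-AS1, -0.33 for FOXD3-AS1, -0.33 for PCBP1-AS1, 0.22 for FGD5-AS1 and 0.35 for TMEM147-AS1. FGD5-AS1, the most abundant member, had effects of 0.29 in SpABE and 0.08 in SpCBE cells (edgeR adjusted p = 0.00082 for the difference).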

How the results depend on the processing

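Over the alternatives run, 2190 values of named genes kept their direction and their side of the threshold, 78 lost a call, 15 gained one and 0 changed sign. Members called over all editors were 9 to 12 when single libraries were left out (SaABE 12 to 14, SpABE 9 to 10, SpCBE 7 to 9). Differences between editors' effects gave 0 to 2 for SaABE less SpABE, 0 to 0 for SaABE less SpCBE and 0 to 1 for SpABE less SpCBE, and the intergenic controls gave 8 to 11, 5 to 7 and 4 to 9. With a member limit of 1 CPM the counts were 17 over all editors, 22 in SaABE, 15 in SpABE and 18, 20 and 13 in the controls. With 5 CPM they were 4, 5, 4 and 4 over all editors and in SaABE, SpABE and SpCBE, 0 for both differences that had calls, and 2, 2 and 2 in the controls. Such limits change the number of members by construction. Calls between SaABE and SpABE and between SpABE and SpCBE were 0 with DESeq2, with no filter and with the replicate block, and the cause was not tested. The ratio of CCDC183-AS1 to CCDC183 was -0.43 with 0.1 CPM added (exact permutation p = 0.113). With the replicate block, 12 members were called over all editors, 14 in SaABE, 9 in SpABE and 8 in SpCBE. Same-numbered libraries correlated at -0.333 to -0.052 in SaABE, 0.096 to 0.128 in SpABE and 0.037 to 0.074 in SpCBE cells, so the numbers were not taken to pair samples, although in SpABE each library correlated best with its own number. A block could not be fitted for the control contrasts. Members near 2 CPM rest on few counts, which limits their precision.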

Other observations

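Other non-coding classes were counted in the same comparison of the NRF1 guide with the intergenic guide, as a description. Of 251 tested antisense RNAs under the level limit, 9 were called higher and 13 lower (8.76%, against 5.5% of all genes). Of 186 LINC RNAs, 6 were called higher and 11 lower (9.14%). Among 44 divergent transcripts with a -DT symbol, 1 was called, MAP3K2-DT at -0.51. Of 10 intronic transcripts with an -IT symbol, ALMS1-IT1 was called higher (0.52) and ANKRD10-IT1 lower (-0.76). None of the 20 small nucleolar RNA host genes was called by edgeR, while 8 were higher and 1 lower by the adjusted p alone.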
